A study of Mus musculus with 8 samples.

Results

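The genes described here are 9 cadherins, Cdh2, Cdh3, Cdh4, Cdh6, Cdh8, Cdh9, Cdh10, Cdh11 and Cdh13, in GFP-positive cells sorted from the embryonic mouse kidney, with GFP from the Tbx18 locus or from a Tbx18VP16 transgene. They were chosen by name: every probe that the scanner files name as 1 of these genes and that stands on both array designs of the series was taken. This gave 16 probes of 9 genes, among 39429 shared probes with 30139 distinct names. The label of the set speaks of mesenchyme. Of the members, Cdh2 and Cdh11 are the usual mesenchymal cadherins, and several others are better known from neurons or epithelia.

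Cadherins are calcium-dependent adhesion proteins that bind the same or a related cadherin on the neighbouring cell. Their cytoplasmic tail binds beta-catenin and p120-catenin, and alpha-catenin links that complex to actin. Cdh2, Cdh3 and Cdh4 are type I cadherins, Cdh6, Cdh8, Cdh9, Cdh10 and Cdh11 are type II cadherins, and Cdh13 lacks the transmembrane and cytoplasmic parts and is held on the membrane by a lipid anchor. Cells with different sets of cadherins tend to sort apart, and in the kidney the change of mesenchyme to epithelium goes along with a change of cadherins.

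The series measured RNA of GFP-positive cells sorted from kidney rudiments of NMRI mouse embryos at stage E11.5, on 8 arrays of 1 colour. The 3 Tbx18 null arrays held cells with GFP on both Tbx18 alleles, Tbx18(GFP/GFP). The 2 Tbx18VP16 arrays held cells of Tbx18(cre/+) embryos with a Tbx18VP16-GFP transgene under the CAG promoter at Hprt, a fusion of the T-box factor Tbx18 to the VP16 activation domain. The 3 control arrays held cells of Tbx18(GFP/+) embryos, so that controls and Tbx18VP16 cells both had 1 altered Tbx18 allele. GFP reports the Tbx18 locus itself in null and control cells, but the Hprt transgene in Tbx18VP16 cells, where Cre is expressed from the Tbx18 locus. Each array held 1 pool of about 100000 cells of both sexes, combined from several rounds of sorting. Nothing in the labels says that pools of a group came from separate litters, and the p values measure the spread between these pools.

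Between 60.1% and 66.0% of probes per array rose well above background, and 0 spots were saturated. The probe of Tbx18, a marker of the mesenchyme around the early ureter, read -2.40, -1.34 and -2.35 in Tbx18 null cells, 1.34 and 1.06 in Tbx18VP16 cells and -0.02, 1.20 and 1.04 in control cells (log2 signal relative to the 75th percentile of the array, the scale of every level here). The sources used here do not say whether this probe lies in the part replaced by GFP, and in Tbx18VP16 cells it may read the transgene too. All 12 markers listed for ureteric mesenchyme were above background on at least 1 array of each group. Their summed signal, in units of the array's 75th percentile, was 183, 132 and 115 in null pools, 118 and 123 in Tbx18VP16 pools and 202, 164 and 147 in control pools. Of the 12, 8 were lower and 4 higher in null against control, and 7 lower and 5 higher in Tbx18VP16 against control. Tbx18, which the genotypes themselves alter, is 1 of the 12 in these sums and counts. Samples also differed in other markers. The summed signal of 12 measured erythroid genes, in units of the array's 75th percentile, was 6.48, 26.7 and 544 in null pools, 4.0 and 9.27 in Tbx18VP16 pools and 7.48, 11.4 and 31.4 in control pools. Null pool 3 was also highest in 19 markers of ureteric epithelium (17.2, against at most 7.55 in any other pool) and in 13 of endothelium (19.1, against at most 4.97). The sum of 17 nephron progenitor markers was 73.7 to 78.8 in null pools, 76.5 and 80.4 in Tbx18VP16 pools and 43.8 to 55.4 in control pools. The sum of 6 platelet markers was 4.51 and 8.90 in Tbx18VP16 pools and at most 1.64 elsewhere. The sum of 8 markers of coelomic and gonadal mesothelium was 10.3 to 14.0 in null, 20.4 and 26.5 in Tbx18VP16 and 3.27 to 5.49 in control pools. These sums did not overlap between groups, but the single genes did not all move alike. In null against control, 4 of 6 tested were higher and 2 lower (median log2 change 0.18). In Tbx18VP16 against control, 6 of 7 were higher and 1 lower (median 0.89). The sum of 12 markers of neural crest, neurons and glia was 8.30 to 10.9 in null, 7.49 and 6.39 in Tbx18VP16 and 5.65 to 7.15 in control pools. Of 10 neural markers tested, 0 were called higher and 2 lower in Tbx18VP16 against control, and 0 higher and 4 lower against null. Over all genes, 5.32% were called against control (3.28% lower) and 3.66% against null (2.49% lower). Other lists held calls too: against control, 6 of 6 platelet and 3 of 17 nephron progenitor markers were called higher, with 0 lower in both. Of the 6 platelet markers, 4 were above background on no control array. The filter of at least 2 of 8 arrays did not require signal in control cells, so such genes could pass it through Tbx18VP16 arrays. The platelet count is therefore a description only. The part of the cell types in these lists in the cadherin results was not tested.

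Cdh6, Cdh9 and Cdh10 are neighbours on chromosome 15. In RefSeq's annotation of GRCm38.p6, Cdh6 lies at chr15:13028699-13176407, Cdh9 at chr15:16728550-16857138 and Cdh10 at chr15:18818869-19016206, with Cdh12 and Cdh18 further along. The gaps between the 5 genes are 3.552, 1.962, 1.433 and 0.95 Mb, and of all genes in these gaps only 1, between Cdh12 and Cdh18, is protein-coding in that table. The probes of the first 3 are shown because they are alike in sequence, and with them that of Cdh8, which like Cdh6 and Cdh9 fell in Tbx18VP16 cells. Capitals mark bases that differ from the Cdh9 probe where the pair overlaps when laid side by side. The Cdh10 probe is shifted by 10 bases against the Cdh9 probe. Its first 10 bases lie outside the overlap and are in lower case without having been compared. The Cdh8 probe, which has no such match, is in lower case throughout.
Cdh9, chr15:16785915-16785974 (mm9, plus strand): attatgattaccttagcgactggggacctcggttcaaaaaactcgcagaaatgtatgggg
Cdh6, chr15:12963981-12964040 (mm9, minus strand): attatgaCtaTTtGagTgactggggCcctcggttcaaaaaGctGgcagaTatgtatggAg
Cdh10, chr15:18943342-18943401 (mm9, plus strand): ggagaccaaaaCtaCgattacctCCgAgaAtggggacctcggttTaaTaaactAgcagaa
Cdh8, chr8:101554638-101554697 (mm9, minus strand): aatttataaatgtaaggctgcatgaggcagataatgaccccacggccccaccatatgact
The Cdh6 probe matched the Cdh9 probe at 50 of 60 bases and the Cdh10 probe matched it at 41 of the 50 bases that overlap, while Cdh6 and Cdh10 matched each other at 35 of 50. The other 124 pairs of probes from different genes, the second Cdh6 probe described below included, had at most 26 matching bases. How far each probe reads the transcript of its relatives was not tested. The Cdh6 and Cdh9 probes both read lower in Tbx18VP16 cells, against control (-1.99 and -3.77) and against null (-1.99 and -2.09). Null and control arrays overlapped for Cdh6 and not for Cdh9, and Cdh10 did not pass in any comparison.

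**Figure D1:**
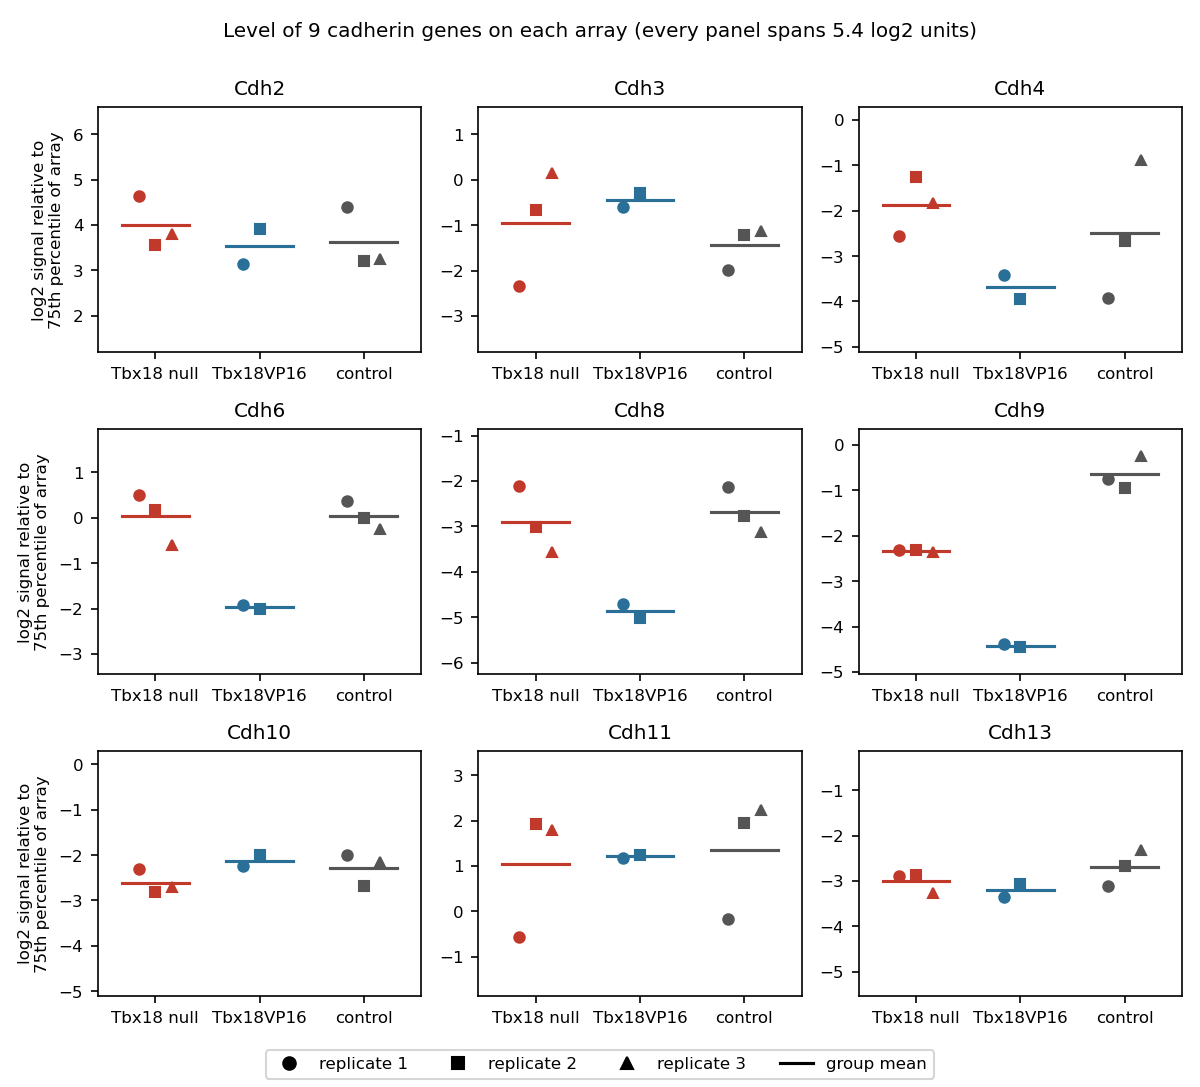
Level of each cadherin gene on each array, by its tested probe. The y axis is log2 signal relative to the array's 75th percentile, points are pools (circle, square and triangle for replicates 1, 2 and 3) and lines are group means. Cdh9 is lowest in Tbx18VP16 cells, higher in Tbx18 null and highest in control cells with no overlap, and Cdh6 and Cdh8 are lowest in Tbx18VP16 cells, with null levels overlapping those of control.

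Cdh9 differed most among the members. This type II cadherin is best known from neurons, where it takes part in forming synapses. Its level was -2.31, -2.31 and -2.37 in Tbx18 null cells, -4.38 and -4.45 in Tbx18VP16 cells and -0.75, -0.95 and -0.24 in control cells. No array of one group overlapped another group, and the order was Tbx18VP16, null, control from lowest to highest. The means were -2.33 ± 0.034 (SD, n = 3) in null, -4.42 ± 0.050 (SD, n = 2) in Tbx18VP16 and -0.65 ± 0.36 (SD, n = 3) in control cells. In bulk RNA of sorted cells, fewer cells with the transcript and less transcript per cell cannot be told apart.

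Cdh9 fell in Tbx18VP16 cells to a level 13.7-fold below control, a log2 change of -3.77 ± 0.26 (SE, adjusted p = 0.000621, limma). Tbx18VP16 cells were also lower than null cells, by -2.09 ± 0.26 on the log2 scale or 4.26-fold (adjusted p = 0.00954, limma). Null cells were 3.20-fold lower than control cells, a log2 change of -1.68 ± 0.26 that did not pass the threshold in limma (adjusted p = 0.118). With replicate number as a block, which the pools of null and control share, the standard error was 0.19 and the adjusted p was 0.0455 (limma). The differences within pools 1, 2 and 3 were -1.56, -1.36 and -2.12. Within the slide that carried pools 1 and 2 of both groups, the change was -1.46 with an adjusted p of 1 (limma), and with the slide as a block the adjusted p was 0.176 (limma). The fall against control passed in all 18 alternative settings, of which 2 leave a single Tbx18VP16 array whose spread is taken from the other groups, and the difference between Tbx18VP16 and null in 16 of 18, the exceptions being the fits without either Tbx18VP16 array (adjusted p = 0.169 and 0.211, limma).

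Cdh6, also called K-cadherin and known from the forming nephron, was lower in Tbx18VP16 cells. Its level was 0.51, 0.18 and -0.59 in null cells, -1.92 and -2.0 in Tbx18VP16 cells and 0.36, -0.00096 and -0.26 in control cells. Both Tbx18VP16 arrays were below every other array, and null and control overlapped almost wholly. The change against control was -1.99 ± 0.35 (SE, 3.98-fold lower, adjusted p = 0.0202, limma), and against null it was -1.99 ± 0.35 (3.97-fold lower, adjusted p = 0.0284, limma). Null cells differed from control by -0.0029 ± 0.35 on the log2 scale (adjusted p = 1, limma). A second probe, which the Tbx18VP16 design names Cdh6 and the control and null design names B130021B11Rik, lies 3' of the first on the same strand and is not among the 16. It read -1.38, -1.19 and -2.11 in null cells, -2.07 and -2.71 in Tbx18VP16 cells and -0.90, -0.81 and -1.37 in control cells. By that probe the change against control was -1.36 (adjusted p = 0.0688) and against null -0.83 (adjusted p = 0.223, limma), so neither passed. The call against control by the first probe was also lost without control pool 2 (adjusted p = 0.0689) or without Tbx18VP16 pool 1 or 2 (adjusted p = 0.18 and 0.237, limma). That against null was lost without null pool 2 (adjusted p = 0.0863), without Tbx18VP16 pool 1 or 2 (adjusted p = 0.248 and 0.33) and with scaling over all spots (adjusted p = 0.0526, limma).

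Cdh8, a type II cadherin known from brain circuits, was the third gene to fall in Tbx18VP16 cells. Its level was -2.10, -3.02 and -3.56 in null cells, -4.70 and -5.01 in Tbx18VP16 cells and -2.14, -2.76 and -3.12 in control cells. The pair of Tbx18VP16 arrays lay below all others, while null and control overlapped. The change against control was -2.18 ± 0.45 (SE, 4.53-fold lower, adjusted p = 0.0348, limma), and against null it was -1.96 ± 0.45 (adjusted p = 0.0565, limma). This call was the least stable: it passed in 10 of 18 alternative settings and missed narrowly with normexp background, quantile normalisation and the authors' deposited values (adjusted p = 0.0558, 0.0555 and 0.0553, limma). It was also lost with scaling over all spots (adjusted p = 0.0605), without control pool 1 or 2 (adjusted p = 0.0675 and 0.0944) and without Tbx18VP16 pool 1 or 2 (adjusted p = 0.206 and 0.321, limma). The other 2 Cdh8 probes were not well above background on any array.

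Cdh10, a neuronal type II cadherin next to Cdh9 on the chromosome, stayed within a narrow range. Its level was -2.30, -2.80 and -2.71 in null cells, -2.24 and -2.0 in Tbx18VP16 cells and -2.0, -2.67 and -2.16 in control cells. The changes were -0.33 ± 0.28 for null against control, 0.16 ± 0.29 for Tbx18VP16 against control and 0.49 ± 0.29 for Tbx18VP16 against null (SE, adjusted p = 1, 0.779 and 0.353, limma). Of the farther neighbours, Cdh12 read -2.85, -3.47 and -3.47 in null cells, -4.26 and -4.27 in Tbx18VP16 cells and -2.86, -3.19 and -3.73 in control cells. Both Tbx18VP16 values were below the rest, but the change of -1.0 ± 0.32 against control did not pass (adjusted p = 0.119, limma). Cdh18 read -4.62, -4.73 and -5.32 in null cells, -5.16 and -4.50 in Tbx18VP16 cells and -3.17, -3.83 and -3.77 in control cells. It was lower in both altered genotypes on every array, by -1.30 ± 0.30 in null (adjusted p = 0.35) and -1.24 ± 0.34 in Tbx18VP16 cells (adjusted p = 0.0805, limma), and neither passed.

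**Figure D2:**
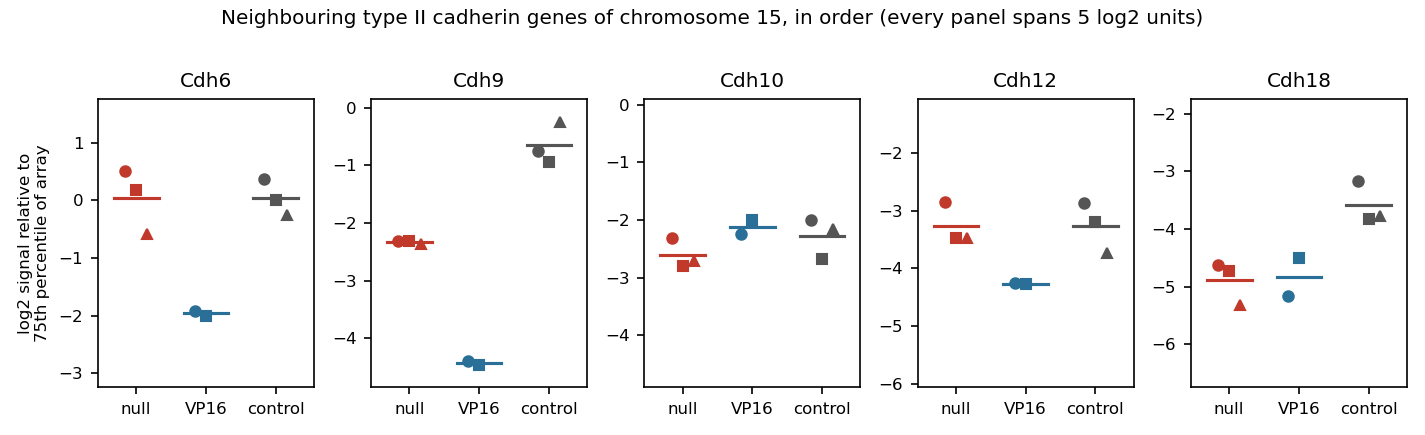
Levels of the 5 neighbouring type II cadherin genes of chromosome 15, in their order along the chromosome, in Tbx18 null, Tbx18VP16 (VP16) and control pools. The y axis is log2 signal relative to the array's 75th percentile, symbols mark replicates 1 to 3 (circle, square, triangle) and lines group means. Cdh9 does not overlap between any groups, Cdh6 and Cdh12 are lowest in Tbx18VP16 pools, Cdh18 is lower in both altered genotypes than in control, and Cdh10 overlaps control in both. The differences of Cdh12 and Cdh18 did not pass the test, and that of Cdh9 between null and control passed in 2 of 20 alternative settings, with the replicate block and in a fit of all 8 arrays.

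Promoters of 4 members, Cdh6, Cdh8, Cdh9 and Cdh10, were in the RefSeq promoter table (GRCm38.p6), each with 250 bases before and 50 after the transcript start that the table uses. The T-box core motif AGGTGT, searched on both strands, was in 0 of the 4 and in 13.74% of all 32851 promoters in the table. The longer AGGTGTGA, of which AGGTGT is a part, was in 0 of the 4 and in 1.275% of all. These counts say only that the letters are not in these windows. The promoters of Cdh6 and Cdh9, the genes that fell against both control and null, are shown for a shared run of 15 bases (capitals). Of the 32851 promoters, only these 2 held it. As the run was taken as the longest that the 2 share, its presence in both was set by the choice. How rare other runs of 15 bases are was not tested, so the count is a description only. The other 5 pairs among the 4 promoters shared at most 8 to 13 bases in a row. The run starts at position -18 from the start site in Cdh6 and at -209 in Cdh9, and it was picked out after the sequences were compared.
Cdh6, chr15:13173626-13173925 (GRCm38.p6, minus strand): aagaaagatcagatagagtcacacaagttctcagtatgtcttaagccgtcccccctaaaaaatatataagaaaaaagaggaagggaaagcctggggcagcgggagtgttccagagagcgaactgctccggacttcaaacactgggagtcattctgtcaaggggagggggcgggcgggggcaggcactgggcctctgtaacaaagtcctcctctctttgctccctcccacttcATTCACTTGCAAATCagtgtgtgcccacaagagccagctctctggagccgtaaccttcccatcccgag
Cdh9, chr15:16728665-16728964 (GRCm38.p6, plus strand): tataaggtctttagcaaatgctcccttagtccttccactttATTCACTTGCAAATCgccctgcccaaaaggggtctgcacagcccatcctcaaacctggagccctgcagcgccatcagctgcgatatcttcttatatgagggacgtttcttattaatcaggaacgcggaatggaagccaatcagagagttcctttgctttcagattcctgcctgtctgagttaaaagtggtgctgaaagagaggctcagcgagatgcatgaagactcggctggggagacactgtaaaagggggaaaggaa

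The cadherins usual for mesenchyme did not pass in any comparison on all arrays. Cdh2, N-cadherin, read 4.64, 3.56 and 3.80 in null cells, 3.14 and 3.92 in Tbx18VP16 cells and 4.40, 3.20 and 3.25 in control cells. All groups overlapped, and pool 1 was the highest of both null and control. The changes were 0.39 ± 0.43 for null against control (SE, adjusted p = 1), -0.09 ± 0.48 for Tbx18VP16 against control (adjusted p = 0.934) and -0.47 ± 0.48 for Tbx18VP16 against null (adjusted p = 0.594, limma). Within pools 1, 2 and 3, null exceeded control by 0.25, 0.36 and 0.55, and the blocked fit did not pass either (adjusted p = 0.304, limma). The other Cdh2 probe read 3.53, 3.29 and 3.24 in null cells, 3.11 and 3.26 in Tbx18VP16 cells and 3.22, 2.95 and 2.61 in control cells, where null lay above control on every array and Tbx18VP16 overlapped both.

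Cdh11, known from osteoblasts and loose mesenchyme, read -0.56, 1.91 and 1.80 in null cells, 1.17 and 1.25 in Tbx18VP16 cells and -0.16, 1.96 and 2.24 in control cells. Pools 1 of null and control stood more than 1 log2 unit below every other array. The same pools were lowest by the second Cdh11 probe, of which the files map only 33 of 60 bases: it read -4.41, -2.27 and -2.83 in null, -2.57 and -2.69 in Tbx18VP16 and -3.82, -2.0 and -3.02 in control cells. The change of Tbx18VP16 against control was -0.13 ± 0.89 (SE, adjusted p = 0.945, limma). Without pools 1 of null and control it was -0.89 (adjusted p = 0.0381, limma). That setting was added after seeing the data and left out the arrays on which Cdh11 was low, so the value is a description and Cdh11 is not counted as called. Such a fit called 11.8% of the 20360 genes tested in either direction and 7.58% lower. Null against control gave -0.29 ± 0.85 (adjusted p = 1), and 0.14 as standard error with the block (adjusted p = 0.463, limma).

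Cdh3, P-cadherin of epithelia and placenta, read -2.35, -0.66 and 0.14 in null cells, -0.60 and -0.28 in Tbx18VP16 cells and -1.98, -1.21 and -1.13 in control cells. Both Tbx18VP16 arrays were above all control arrays, while null spanned the whole range. The change against control was 1.0 ± 0.65 (SE, adjusted p = 0.40, limma). Null pool 3, the highest for Cdh3, was also the pool with the highest sums of epithelial, endothelial and erythroid markers, and Cdh1, the cadherin of the ureteric epithelium, read -7.84, -3.39 and -2.09 in null cells, -7.92 and -6.69 in Tbx18VP16 cells and -7.67, -5.27 and -5.21 in control cells. In Tbx18VP16 pools, where Cdh3 was also high, the epithelial sum was 4.65 and 5.39. The part of epithelial or other cells in the Cdh3 signal was not tested.

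Cdh4, R-cadherin of retina and nervous system, had probes that disagreed. The tested Cdh4 probe read -2.55, -1.26 and -1.83 in null cells, -3.42 and -3.95 in Tbx18VP16 cells and -3.92, -2.67 and -0.90 in control cells. Tbx18VP16 was below null on every array, by -1.80 ± 0.78 (SE, adjusted p = 0.228, limma), and overlapped control. Another probe read -4.92, -2.73 and -2.30 in null, -4.17 and -4.27 in Tbx18VP16 and -7.11, -5.57 and -5.11 in control cells, with control pool 1 not well above background. Against control, Tbx18VP16 was thus lower by the tested probe (-1.19) and higher by the other (1.71), and neither passed. A further Cdh4 probe was above background on 1 array only, null pool 2. Probes also differed in sign for Tbx18VP16 against control in Cdh2 (-0.09 and 0.26) and Cdh11 (-0.13 and 0.32), and none of these passed.

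Cdh13, T-cadherin, which binds adiponectin and is found on vessel and heart cells, read -2.90, -2.86 and -3.26 in null cells, -3.36 and -3.06 in Tbx18VP16 cells and -3.11, -2.66 and -2.31 in control cells. All groups overlapped, and the change of Tbx18VP16 against control was -0.51 ± 0.29 (SE, adjusted p = 0.341, limma). Its other probe was not well above background on any array. Of the 16 member probes, 11 were above background on all 8 arrays.

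**Figure D3:**
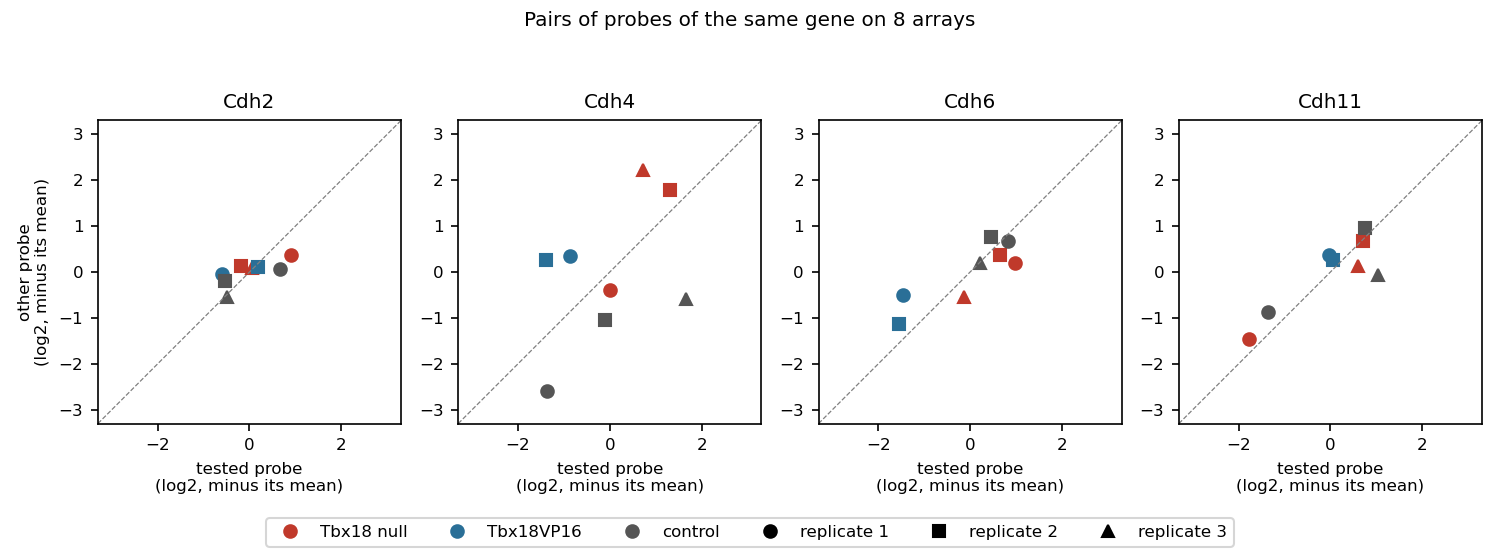
Levels by the tested probe (x axis) and by another probe (y axis) for Cdh2, Cdh4, Cdh6 and Cdh11, each as log2 minus the probe's own mean over 8 arrays. Colours mark genotype, symbols replicates, and the dashed line equal deviations. For Cdh11 both probes put pools 1 of null and control lowest, whereas for Cdh4 the Tbx18VP16 pools are low by the tested probe and not by the other. The other Cdh6 probe is the one named B130021B11Rik on the control and null design.

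Over the set, all 9 genes were tested in each comparison. Against control, 3 members were called lower in Tbx18VP16 cells (Cdh6, Cdh8 and Cdh9) and 0 higher, where 5.32% of 20599 genes were called in either direction and 3.28% lower. Against null, 2 were called lower (Cdh6 and Cdh9), where 3.66% were called in either direction and 2.49% lower. In null against control, the main fit, which leaves the pairing of pools out, called 0 of the 9 members and 0% of 19710 genes. In that fit, 1 member, Cdh9, and 951 of the 19710 genes had an unadjusted p under 0.05 (limma). That share of genes is below the 0.05 that such a threshold would pass with no differences at all. The blocked limma fit called 1 member lower, where 0.934% were called in either direction and 0.452% lower. The arrays of the groups did not overlap in 4 members for Tbx18VP16 against control (Cdh3, Cdh6, Cdh8 and Cdh9) and in 5 for Tbx18VP16 against null (Cdh4, Cdh6, Cdh8, Cdh9 and Cdh10), where that held for 47.6% and 48.1% of all genes. In null against control it held for 1 member and 7.75% of all genes. The median log2 change of the 9 genes was -0.22 in null against control, -0.51 in Tbx18VP16 against control and -0.47 in Tbx18VP16 against null, beside 0.0068, -0.14 and -0.15 over all genes tested. The Tbx18VP16 arrays had a design and a scan of their own, so that genotype, design, slide and scan cannot be told apart in comparisons with them. Both comparisons with control share the control arrays, and leaving out either Tbx18VP16 array leaves 39 or 45 genes and 1 member, Cdh9, called against control.

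**Figure D4:**
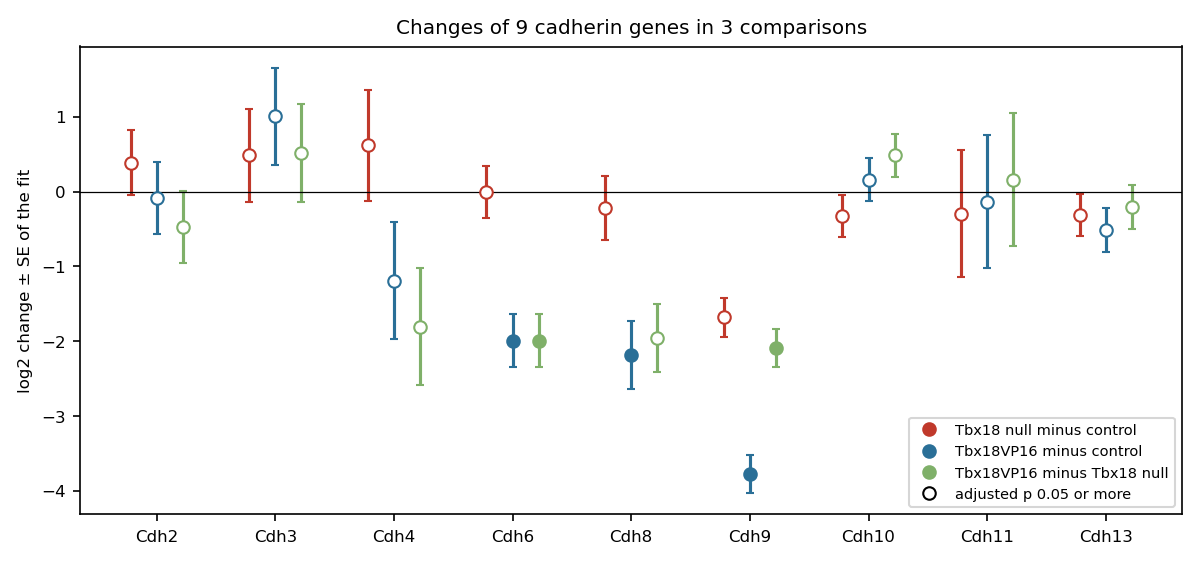
Log2 change of each cadherin gene in 3 comparisons, with the standard error of the limma fit as bars. Filled points passed an adjusted p of 0.05 and open points did not. Null minus control is from the fit without the replicate block. Filled points are Cdh6, Cdh8 and Cdh9 for Tbx18VP16 minus control, and Cdh6 and Cdh9 for Tbx18VP16 minus Tbx18 null.

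For the members whose level spanned at least 2 log2 units, the genes with the most similar pattern over the 8 arrays, up to 3 each, were taken by Pearson r. These points share arrays, pools and array design, and r is given as a description only. Cdh9 was most like Il1rapl1 (r = 0.993), Sstr1 (0.989) and Kcnip4 (0.989), of which the somatostatin receptor gene Sstr1 read -3.10, -3.33 and -3.55 in null, -5.28 and -5.34 in Tbx18VP16 and -1.48, -1.42 and -1.41 in control cells. Cdh8 was most like Slc16a1, Rasgrf2 and Spef2 (0.998, 0.996 and 0.996), and Cdh6 was like Skint10 and Vmn2r61 (0.994 and 0.991). Cdh11 was most like Fos, ND3 and Coa6 (0.987, 0.985 and 0.983), all low in pools 1 of null and control. Cdh3 was most like Cd9, Yy1 and Eif3j1 (0.992, 0.988 and 0.987), and Cdh4 like Pla2r1, Gapdhs and Olfr480 (0.954, 0.943 and 0.942). Some of these genes were near background: Il1rapl1, Kcnip4, Spef2 and Skint10 were above it on 6 of 8 arrays, Vmn2r61 on 5, Gapdhs on 4 and Olfr480 on 2. The other genes named here were above background on all 8.

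Catenins hold cadherins to actin. Of 17 tested catenin and linker genes, 1 was called higher and 0 lower in Tbx18VP16 against control, a share near the 5.32% over all genes. That gene was Ctnna2, the alpha-catenin of neurons, which read -3.77, -3.45 and -3.40 in null, -2.83 and -2.38 in Tbx18VP16 and -4.16, -3.83 and -3.65 in control cells (1.28 ± 0.27, SE, adjusted p = 0.035, limma). Over 18 alternative settings the count lay between 0, as with normexp background, and 4, as with scaling over all spots or the replicate block. Against null, vinculin, Vcl, was the 1 called, higher by 1.15 ± 0.23 (adjusted p = 0.0393, limma), where 3.66% of all genes were called. Beta-catenin, Ctnnb1, changed by 0.31 ± 0.57 in Tbx18VP16 against control and p120-catenin, Ctnnd1, by -0.02 ± 0.24 (adjusted p = 0.777 and 0.965, limma). In null against control, 0 of the 17 were called with or without the block.

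Among 8 tested of 11 other classical cadherins, 1 was called against control, where 5.32% of all genes were called. That gene, Cdh22, a cadherin of pituitary and brain, went the opposite way to Cdh9. It read -2.34, -3.35 and -3.45 in null, -0.70 and -0.20 in Tbx18VP16 and -3.93, -4.83 and -4.55 in control cells. Its groups did not overlap, and the order was control, null, Tbx18VP16 from lowest to highest. The change in Tbx18VP16 cells was 3.98 ± 0.41 against control (SE, adjusted p = 0.00312) and 2.60 ± 0.41 against null (adjusted p = 0.0211, limma). Null exceeded control by 1.39 ± 0.39 (adjusted p = 0.483, and 0.0431 with the block, limma). The blocked fit called 1 of the 8 tested here, beside 0.934% of all genes. Cdh15, M-cadherin of muscle, was the other call against null, at -1.15 ± 0.25 (adjusted p = 0.0487, limma), where 3.66% of all genes were called.

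Of 32 tested genes of the wider cadherin superfamily, 1 was called higher and 3 lower in Tbx18VP16 against control, where 5.32% of all genes were called in either direction and 3.28% lower. Over 18 alternative settings the count lay between 0, without either Tbx18VP16 array, and 14, with the replicate block. The atypical cadherin Fat3 rose by 1.54 ± 0.28 (adjusted p = 0.0223, limma). The protocadherins Pcdh8 and Pcdh10 changed by -2.06 ± 0.30 and -1.05 ± 0.24 (adjusted p = 0.0105 and 0.0436), and the calsyntenin Clstn2 by -1.87 ± 0.32 (adjusted p = 0.0171, limma). Pcdh8 read -0.99, -0.60 and -0.44 in null, -0.60 and -0.66 in Tbx18VP16 and 1.01, 1.51 and 1.79 in control cells. Null and Tbx18VP16 thus overlapped, unlike for Cdh9, and the difference between them was 0.05 ± 0.30 (adjusted p = 0.939, limma). Against null, where 3.66% of all genes were called, 1 superfamily gene was called lower, Pcdh10 (-1.11 ± 0.24, adjusted p = 0.0462), and 1 higher, Pcdh9 (adjusted p = 0.0464, limma). Pcdh9 was not well above background in null cells and was at least 4.16-fold higher in Tbx18VP16 cells. The filter for this comparison did not require signal above background in null cells, so such a gene could be tested. The part of the filter and of the separate array design in the Pcdh9 call was not tested. In null against control, the blocked fit called Pcdh8 (-2.11, adjusted p = 0.0206) and Clstn2 (-1.92, adjusted p = 0.0444, limma) of 31 tested. That fit called 0.934% of all genes in either direction and 0.452% lower. The fit without the block called 0 (adjusted p = 0.102 and 0.13, limma).

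The next 2 lists had 1 call each against control, a share near the 5.32% over all genes. Of 13 tested nectin and immunoglobulin adhesion genes, the neural adhesion gene Chl1 was the 1 called, lower by -2.73 ± 0.33 in Tbx18VP16 against control (adjusted p = 0.00526) and by -1.83 ± 0.33 against null (adjusted p = 0.0296, limma). Of 14 genes that process or turn over cadherins, the 1 call was Pcsk6, a proprotein convertase, higher by 2.41 ± 0.36 against control (adjusted p = 0.0125) and by 2.15 ± 0.36 against null (adjusted p = 0.0249, limma). Of 14 tested regulators of cadherin switching, 0 were called in Tbx18VP16 against control or null. In null against control the blocked fit called 3 of 13 lower and 0 higher, where 0.934% of all genes were called in either direction and 0.452% lower. These were Twist1 (-2.01, adjusted p = 0.0206), Zeb2 (-1.63, adjusted p = 0.0323) and Twist2 (-1.01, adjusted p = 0.049, limma). They are known as repressors of Cdh1 in epithelial cells. The fit without the block called 0. Without Tbx18VP16 pool 1, the calls against control numbered 1 for the other classical cadherins, 1 for the nectin list and 0 for the catenin, superfamily and processing lists, and without pool 2 they numbered 0 in each.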

How the data were processed

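RNA of 8 pools of sorted cells was measured on 8 one-colour Agilent arrays, in 3 groups taken from the labels. Per the file headers, Agilent Feature Extraction 10.7.3.1 gave each spot a processed intensity, already corrected for background, and flags. The authors' deposited value tables hold intensity on a linear scale with identical sorted values in each column and a floor of 10, and served as an alternative; the sources used here do not name their software. Of 4 spots per probe, outlier spots (1.86% to 3.14%) were left out, the rest averaged, and log2 of the mean minus the array's 75th percentile over the shared probes was computed. That percentile was 976 to 2129, and the number of arrays limits the precision.

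Tested probes were those well above background (at least 0.5 of the spots) on at least 3 of the 6 null and control arrays, or at least 2 of 8, and a gene was read by its tested probe of highest mean level. Limma 3.58.1 (R 4.3.3) compared null with control on 6 arrays, and Tbx18VP16 with both in a fit of 3 group means on 8 arrays. P values are two-sided and Benjamini-Hochberg adjusted over all genes tested, with a threshold of 0.05.

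Deviations from group means correlated at 0.830, 0.729 and 0.445 between null and control pools of the same number. Between pools of different numbers they correlated at -0.739 to 0.243. Null and control numbers were therefore taken as pairs in the blocked fit, while the main fit had no term for pairs. Tbx18VP16 numbers were not taken as pairs. Pools 1 and 2 of null and control were on slide 1 and scan 1 with 20 ng of RNA, and pools 3 on slide 2 and scan 2 with 10 ng. Tbx18VP16 pools were on slide 3 with another array design. Probes were named through RefSeq (GRCm38.p6, by accession for 27508), or kept the files' names. Probe coordinates are those of the files (mm9). The members, the gene lists and the alternatives were chosen with earlier results of these data known. The rule for named genes took all members, the 3 genes most like each member that spanned at least 2 log2 units, and up to 4 genes of smallest p from each list. Some genes that the rule takes, and 1 list, are not reported here. Alternatives of background, normalisation, scaling, filter, probe, block and left-out arrays are described in the closing section.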

Additional observations from a re-analysis of the deposited data

How the results depend on the processing

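The replicate block gave 184 genes and 1 member (Cdh9) called in null against control, against 0 and 0 without it, and 3640 and 3285 genes in Tbx18VP16 against control and null, where pairing does not hold. Null against control called 1 gene with no filter, 14 with the strict filter, 6 with the slide block, and 62 genes and 1 member in a fit of all 8 arrays. Leaving out 1 array gave 0 to 3 genes and 0 members there, 39 to 927 genes and 1 to 3 members for Tbx18VP16 against control, and 0 to 655 genes and 0 to 3 members for Tbx18VP16 against null. The lowest counts came without Tbx18VP16 replicate 1 or 2 (45 and 39 genes against control, 6 and 0 against null), followed by those without control pool 2 (298 genes) and null pools 2 and 3 (170 and 439 genes). Normexp background gave 625 and 404 genes against control and null, and leaving out pools 1 gave 2406 and 1703, against 1095 and 753. Against null, 1 member passed, not 2, with scaling over all spots or with Cdh6 by its other probe. Scaling over all spots raised the Tbx18VP16 arrays by 0.46 and 0.44 and turned the split of calls against control to 1091 higher and 248 lower, from 420 and 675; it was 555 and 408 with median scaling, 555 and 620 with quantile normalisation and 565 and 564 with the authors' values. Of 504 member values, 443 kept their direction and side of the threshold, 19 no longer passed and 7 newly passed. Direction turned in 35, each in a comparison where that member was not called on all arrays, and the cause was not tested.

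For null against control, these were Cdh6 with normexp background (0.018), within slide 1 (0.16) and with scaling over all spots (0.0095), and Cdh13 within slide 1 (0.0066). Leaving out 1 array gave -0.065 to 1.18 for Cdh3, -0.10 to 1.41 for Cdh4, -0.24 to 0.31 for Cdh6, -0.62 to 0.11 for Cdh8 and -1.05 to 0.51 for Cdh11. For Tbx18VP16 against control, Cdh2 was at 0.085 with quantile normalisation and with the authors' values, 0.12 with median scaling, 0.086 with the mean of its probes, 0.37 with scaling over all spots and 0.30 without pools 1. Cdh11 was at 0.069 with median scaling, 0.091 with the mean of its probes, 0.28 with the replicate block and 0.32 with scaling over all spots, and Cdh4 at 0.26 with the mean of its probes. Leaving out 1 array gave -0.48 to 0.30 for Cdh2, -0.042 to 0.29 for Cdh10 and -0.89 to 0.31 for Cdh11. For Tbx18VP16 against null, Cdh13 was at 0.071 with median scaling and 0.24 with scaling over all spots, and without pools 1 Cdh3 was at -0.18 and Cdh11 at -0.65. Leaving out 1 array gave -0.18 to 1.07 for Cdh3 and -0.65 to 0.59 for Cdh11.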
